A study of Mus musculus with 10 samples.

Results

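In neonatal mouse retina, 2839 stretches of open chromatin carried peaks of both H3K27ac and H3K27me3. They were found by merging the 4 ATAC-seq peak lists of the study on chromosomes 1 to 19 wherever peaks shared at least 1 bp, keeping the merged regions called in all 4 lists, and keeping among these the regions that met, by at least 1 bp, a peak in both H3K27ac lists and in both H3K27me3 lists. These regions were 2.44% of the 116384 merged regions and 8.64% of the 32852 regions called in all 4 ATAC lists. Of the other regions called in all 4 lists, 18636 met H3K27ac in both lists and H3K27me3 in neither, 1427 met H3K27me3 in both and H3K27ac in neither, and 7325 met no peak of either mark. The peaks themselves chose the regions, so that the presence of the marks is a description here and not a finding.

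All samples came from C57BL/6 mice. ATAC-seq, a method that uses Tn5 transposase to cut DNA free of nucleosomes, was applied to retinal explants labelled postnatal day 2 that received plasmids for GFP alone (the control, labelled wild type) or for GFP and Cre (the Casz1 cKO, a conditional knockout of the zinc finger factor Casz1). After 2 days ex vivo, 50000 viable GFP-positive cells were sorted for each of 2 control and 2 cKO libraries, so the cells that took up the plasmids are the cells measured. The histone marks were measured by chromatin immunoprecipitation in dissected newborn retina (labelled P0). Each mark had 1 library per genotype, and the cKO tissue was taken from peripheral retina by its fluorescence. The Cre driver in that tissue, the part of Casz1 deleted and any pooling of animals were not stated. Open chromatin and marks thus came from different cells and ages, and a bulk list cannot show whether both marks lay on the same chromosome copy or in the same cell. Neither can a smaller share of cells with a mark be told apart from less of the mark per cell.

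H3K27ac and H3K27me3 are modifications of the same residue, lysine 27 of histone H3, and a single histone tail can carry only one of them. Acetylation there marks active promoters and enhancers, while trimethylation is laid down by Polycomb repressive complex 2 over genes of developmental regulators that are held off in a given cell type. In a developing tissue such as the retina, progenitors and several kinds of young neuron lie side by side and use different regulators.

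4 of the regions held the starts of Neurod1, Nr2e1, Pax6 and Sox2, and the 250 bases before these starts are shown because start sites were the most common place for both marks. Among regions holding the most upstream start of a protein-coding gene, these had the most bases under both marks within 5 kb. Neurod1 encodes a proneural factor of photoreceptors and amacrine cells, Nr2e1 an orphan nuclear receptor of progenitors, Pax6 the paired homeobox factor of the eye field and Sox2 a factor of progenitors and glia. The sequences before Gapdh, a glycolytic enzyme gene in an H3K27ac-only region, and Adamtsl5, in an H3K27me3-only region, are given for comparison. They were chosen by the most bases of their mark, Gapdh among housekeeping and ribosomal genes only, with ties in alphabetical order. Sequences chosen in this way do not stand for their kind of region. CG pairs are in capitals, and the sequences are from RefSeq on GRCm38.p6, the assembly also called mm10, read 5′ to 3′ on the strand of the gene.
Neurod1: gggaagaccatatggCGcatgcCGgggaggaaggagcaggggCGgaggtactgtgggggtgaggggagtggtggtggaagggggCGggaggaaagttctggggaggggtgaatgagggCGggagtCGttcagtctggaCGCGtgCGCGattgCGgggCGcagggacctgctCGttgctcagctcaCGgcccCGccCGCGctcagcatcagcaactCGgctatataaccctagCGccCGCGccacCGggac
Nr2e1: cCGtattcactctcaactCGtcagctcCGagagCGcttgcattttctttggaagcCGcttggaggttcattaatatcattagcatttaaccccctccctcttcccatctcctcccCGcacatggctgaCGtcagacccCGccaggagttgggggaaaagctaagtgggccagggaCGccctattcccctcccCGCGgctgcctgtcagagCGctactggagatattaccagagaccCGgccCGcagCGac
Pax6: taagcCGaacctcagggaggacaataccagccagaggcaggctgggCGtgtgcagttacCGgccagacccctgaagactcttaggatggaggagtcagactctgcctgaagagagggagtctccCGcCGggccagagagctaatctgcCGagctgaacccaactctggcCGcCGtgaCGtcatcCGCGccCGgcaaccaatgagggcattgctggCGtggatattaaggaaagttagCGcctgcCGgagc
Sox2: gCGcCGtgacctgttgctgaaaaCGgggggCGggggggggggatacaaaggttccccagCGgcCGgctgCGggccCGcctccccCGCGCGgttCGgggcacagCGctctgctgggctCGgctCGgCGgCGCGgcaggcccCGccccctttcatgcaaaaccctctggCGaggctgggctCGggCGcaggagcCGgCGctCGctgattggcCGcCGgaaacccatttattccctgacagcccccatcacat
Gapdh: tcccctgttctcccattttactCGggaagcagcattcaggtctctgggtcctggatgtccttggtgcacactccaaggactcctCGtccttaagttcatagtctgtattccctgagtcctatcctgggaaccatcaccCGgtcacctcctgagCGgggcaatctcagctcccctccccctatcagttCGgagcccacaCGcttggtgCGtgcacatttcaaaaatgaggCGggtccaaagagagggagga
Adamtsl5: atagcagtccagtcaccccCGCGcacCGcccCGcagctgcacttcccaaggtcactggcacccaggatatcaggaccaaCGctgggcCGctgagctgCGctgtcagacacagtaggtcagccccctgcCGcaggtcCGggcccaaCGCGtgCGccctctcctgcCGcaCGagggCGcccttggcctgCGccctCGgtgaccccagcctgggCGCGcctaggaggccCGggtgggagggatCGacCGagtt
The Neurod1 stretch (chr2:79456637-79456886, minus strand) held 22 CG pairs and that of Nr2e1 (chr10:42583591-42583840, minus strand) held 15. The Pax6 stretch (chr2:105668646-105668895, plus strand) held 15 and that of Sox2 (chr3:34649745-34649994, plus strand) held 27. The Gapdh stretch (chr6:125165774-125166023, minus strand) held 8 and that of Adamtsl5 (chr10:80348449-80348698, minus strand) held 22.

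Promoters in regions with both marks had a higher GC content and more CG pairs than protein-coding promoters as a whole. Over the 1505 protein-coding promoters in them (300 bases each, 250 before and 50 after the start), the median GC content was 66.3%, beside 62.0% for 8732 promoters in H3K27ac-only regions, 62.7% for 113 in H3K27me3-only regions and 57.0% for all 20085 protein-coding promoters in the table. The median number of CG pairs was 24, 23, 20 and 14 in the same order. The 52 promoters in open regions with neither mark had a median GC content of 51.8%, 7.5 CG pairs and GGGCGG in 15.4%. The letters GGGCGG, searched on both strands, were in 76.5% of promoters with both marks, in 68.3% of those with H3K27ac only, in 61.1% of those with H3K27me3 only and in 47.0% of all. CCAAT, on either strand, was in 30.3%, 40.5%, 47.8% and 38.1%. TATAAA, on either strand, was in 6.05%, 5.42%, 6.19% and 12.7%, so that its share was low in all 3 of these kinds of open region. These are shares of promoters and not tests.

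The regions lay mostly at genes. Of the 2839 regions, 1801 (63.4%) lay within 1 kb of an annotated end of a protein-coding gene, beside 44.5% of H3K27ac-only regions, 19.1% of H3K27me3-only regions, 6.33% of regions with neither mark and 34.5% of all regions called in all 4 lists. A gene end is either end of the gene, since strand was not used for it. A transcription start itself lay in 1432 of the 2737 regions on chromosomes covered by the table of starts (52.3%), beside 40.9% of H3K27ac-only regions and 10.5% of H3K27me3-only regions. The median width was 1135 bp, with a range from 207 to 3582 bp, and H3K27ac-only regions had a median of 946 bp. H3K27me3 was not more frequent where H3K27ac was present: within 1 kb of a gene end, 17.4% of 10362 regions with H3K27ac in both lists had H3K27me3 in both, beside 35.9% of 761 regions with H3K27ac in neither, and farther away these shares were 8.92% and 13.9%.

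The rule asked only that each mark meet the region somewhere, and in most of the regions the marks also overlapped on the same bases. The peaks that chose the regions make such an overlap likely: at the centre 86.2% lay under H3K27ac and 61.4% under H3K27me3 in control. No expected share was computed, so these values are a description. At least 1 bp of the region lay under both marks in 2708 regions (95.4%) in control, in 2684 (94.5%) in cKO and in 2637 (92.9%) in both genotypes. At least 50% of the region lay under both marks in both genotypes in 958 regions (33.7%), and 84 regions had no such base in either genotype. H3K27ac and H3K27me3 each covered at least 50% in 1062 regions, H3K27ac alone reached that share in 927, H3K27me3 alone in 594 and neither in 256. The smallest of the 4 overlaps that chose a region had a median of 424 bp. It was at most 50 bp in 99 regions, and 77 of the 778 regions that missed exactly 1 histone list had a peak of that list within 50 bp.

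By the medians, H3K27ac covered fewer bases around these regions than H3K27me3, and single regions went the other way. In the 5 kb centred on a region with both marks, the median of bases under H3K27ac was 1122 bp in control and 1057 bp in cKO, and under H3K27me3 it was 2889 and 2883 bp. H3K27ac-only regions had 1643 and 1549 bp of H3K27ac, and H3K27me3-only regions 4033 and 4037 bp of H3K27me3. The longest H3K27me3 peak meeting a region with both marks had a median length of 2822 bp in control and 2887 bp in cKO, against 5106 and 5066 bp in H3K27me3-only regions. At the Pax6 region with the most bases under both marks the order was reversed, with a longest H3K27ac peak of 28338 bp and a longest H3K27me3 peak of 4036 bp in control. By the medians, both marks covered fewer bases here than where either stood alone, in both genotypes. At the centre, 61.4% of the regions lay under H3K27me3 in control, with 68.9% at 0.7 kb to the left and 68.1% at 0.7 kb to the right. H3K27me3-only regions had the same dip, from 76.8% to 69.4% at the centre.

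**Figure D1:**
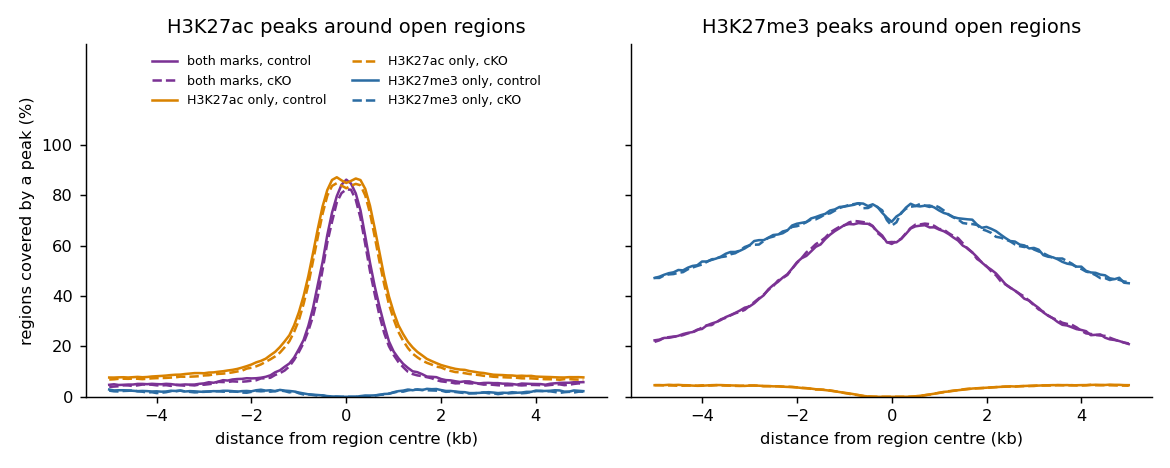
Share of regions (in %, vertical axis) lying under a peak at each distance from the region centre (kb, horizontal axis), for regions with both marks, H3K27ac only and H3K27me3 only, in control (solid) and cKO (dashed), 1 library each. In regions with both marks H3K27ac falls from 86.2% at the centre to 7.04% at 2 kb in control, while H3K27me3 is still at 51.7% there.

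Lists of retinal regulators had larger shares of genes with such a region than all genes together. Each region was assigned to the protein-coding gene with the nearest end within 50 kb, which placed 2611 regions at 2326 genes, or 11.3% of 20665 protein-coding genes. Of the eye field and retinal homeobox genes, 26 of 41 (63.4%) had at least 1 region, with Barhl2 (5 regions), a homeobox factor of amacrine and ganglion cells, Irx5 (3), a bipolar cell factor, and Pax6 (3) having the most. Of the ganglion, amacrine and horizontal cell genes, 22 of 35 (62.9%) had one, led by Barhl2, Ptf1a and Atoh7, the last a bHLH factor needed for ganglion cells. Zinc finger, T-box and GATA regulators had one at 26 of 51 genes, with Prdm8 (4) and Zic4 (3) ahead, and bipolar genes at 10 of 23. The proneural and other bHLH genes reached 13 of 44 genes, with 3 regions each at Bhlhe41, Neurod1 and Neurog2. H3K27me3-only regions also had larger shares in most of these lists than the 4.46% of all genes. The share was 29.3% of eye field genes, 31.4% of ganglion, amacrine and horizontal cell genes and 35.3% of zinc finger, T-box and GATA genes. It was 18.2% of the bHLH genes, and no bipolar gene had one. Larger shares in these lists were thus not particular to regions with both marks, apart from the bipolar list.

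Signalling and guidance genes also had such regions. Axon guidance genes had a region at 32 of 63, led by the ephrin receptor gene Epha8 (6 regions), Wnt pathway genes at 25 of 54, BMP, FGF, hedgehog and retinoid genes at 22 of 64, and Notch pathway genes at 8 of 27, among them the ligand gene Dll4, the glycosyltransferase gene Lfng and the receptor gene Notch1. Sox genes had one at 7 of 18, forkhead genes at 11 of 30 and Müller glia genes at 9 of 28. Rod and cone photoreceptor genes had a share near that of all genes, 4 of 32 (12.5%): the rod transducin gene Gnat1, the rod factor gene Nrl, the nuclear receptor gene Rxrg and Samd11 (named after its value was seen). H3K27me3-only regions were at 36.7% of forkhead, 33.3% of Wnt, 17.5% of axon guidance and 16.7% of Sox genes, beside 4.46% of all genes. The share was 10.9% in the BMP list, 10.7% in the Müller glia list and 3.70% in the Notch list. H3K27ac-only regions were at 74.1% of Notch, 78.6% of Müller glia and 60.3% of axon guidance genes, beside 50.4% of all genes. Their shares in the other lists here were lower. Larger shares were thus not particular to regions with both marks.

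Some lists had none. The 39 Hox genes, regulators of the body axis, had no region with both marks. Only 14 of them had any region called in all 4 ATAC lists, beside 38 of the 41 eye field genes, and 13 had an H3K27me3-only region. The 38 housekeeping and ribosomal genes had none either, and 36 had an H3K27ac-only region. Homeobox genes other than those of the retina had both marks at 15 of 84 and an H3K27me3-only region at 48. Polycomb and NuRD subunit genes had both marks at 7 of 39 and cell cycle genes at 8 of 36 (Ccnd1 with 4). Of the lists of other cell types in the eye, pigment epithelium genes had 1 of 14 (Dct), vascular genes 1 of 19 (Cldn5), microglia and macrophage genes 2 of 13 (15.4%), lens and cornea genes 2 of 15 (13.3%) and astrocyte genes 3 of 8, where all genes had 11.3%. These shares are of all genes of a list, including genes with no region called in all 4 ATAC lists. They describe the lists and were not tested against each other.

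**Figure D2:**
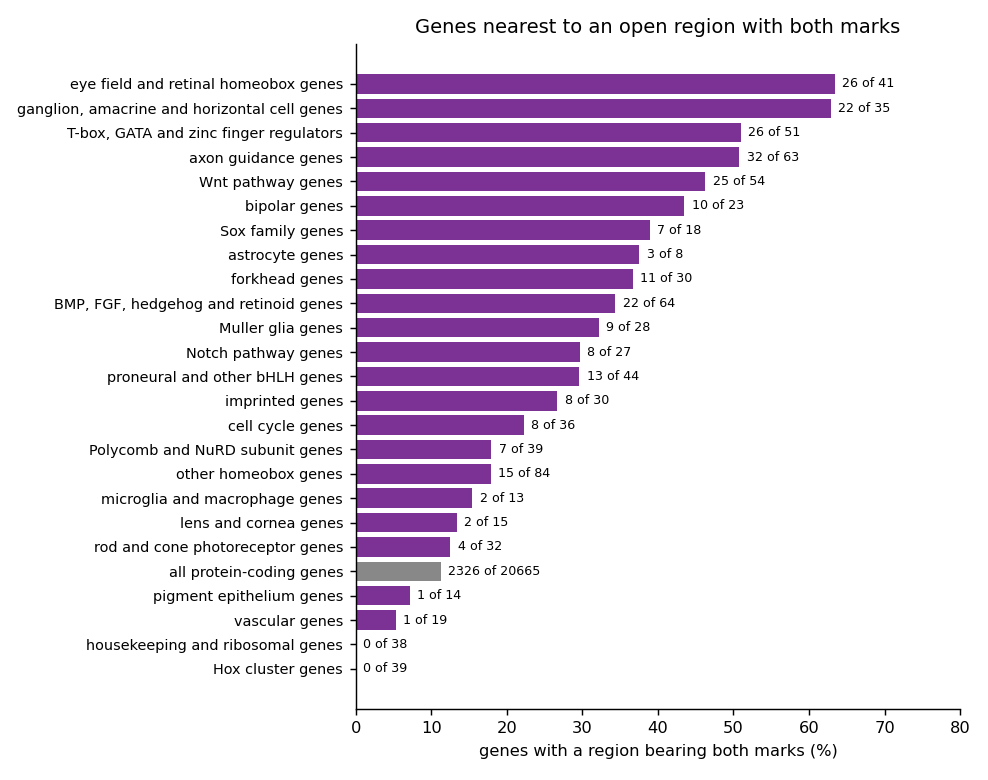
Share of genes of each list (in %, horizontal axis) with at least 1 open region bearing both marks within 50 kb of a gene end, with the counts beside each bar and all protein-coding genes in grey. The eye field list and the ganglion, amacrine and horizontal cell list reach 63.4% and 62.9%, all genes 11.3%.

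The tissue label was checked against marker genes of the cell types the dissection could hold. Of 11 retinal markers, 10 had an ATAC peak in all 4 lists and H3K27ac in both lists within 1 kb of a start, the exception being Rcvrn. Of 6 microglia and macrophage markers and 5 lens markers, none had an ATAC peak in all 4 lists, and the same held for 3 of 6 vascular, 3 of 7 pigment epithelium and 4 of 5 astrocyte markers. H3K27ac coverage of these lists within the 2 kb around a start ran from 0 to 2001 bp in the vascular list, from 0 to 1334 bp in control for pigment epithelium, from 0 to 255 bp in control for microglia, and was 0 throughout in lens. The part of such cells in regions with both marks was not tested.

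The 10 regions named here have the most bases under both marks, with at most 1 region per gene. Taking the lower of the genotypes, all 5000 bp of the window lay under both marks at 4 regions. The first was in Neurod1 (chr2:79453914-79455416), 1.22 kb from an end of the gene, and another 1.99 kb from an end of Otx2 (chr14:48664833-48665655), a homeobox factor of photoreceptors and bipolar cells. A further one lay 7.198 kb from an end of Tfap2a (chr13:40730606-40731040), a factor of amacrine cells. The last lay upstream of the microRNA genes Mir183, Mir96 and Mir182 (chr6:30174051-30175821), 20.6 kb from an end of Nrf1, its nearest protein-coding gene. Next came a region 4.752 kb from Mir124a-1 (chr14:64585154-64585905, 4871 bp; nearest protein-coding gene Kif13b at 66.6 kb), and regions at Nr2e1 (4595 bp), the cyclin gene Ccnd1 (4522 bp), Pax6 (4410 bp), 53.6 kb from Mef2c (4381 bp) and at Irx5 (4326 bp). A further region of Neurod1 (chr2:79456569-79457158), at its start, had 4840 bp.

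ATAC peaks at these regions were called in every library. At the region upstream of Mir183 they covered 713 bp in control replicate 1, 1771 bp in control replicate 2, 1551 bp in cKO replicate 1 and 950 bp in cKO replicate 2. At the Neurod1 region with 5000 bp under both marks they covered 141, 1467, 1140 and 361 bp in the same order. At the Otx2 region they covered 517, 823, 778 and 563 bp. In each of these, control replicate 2 was highest and control replicate 1 lowest, and the genotypes overlapped.

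**Figure D3:**
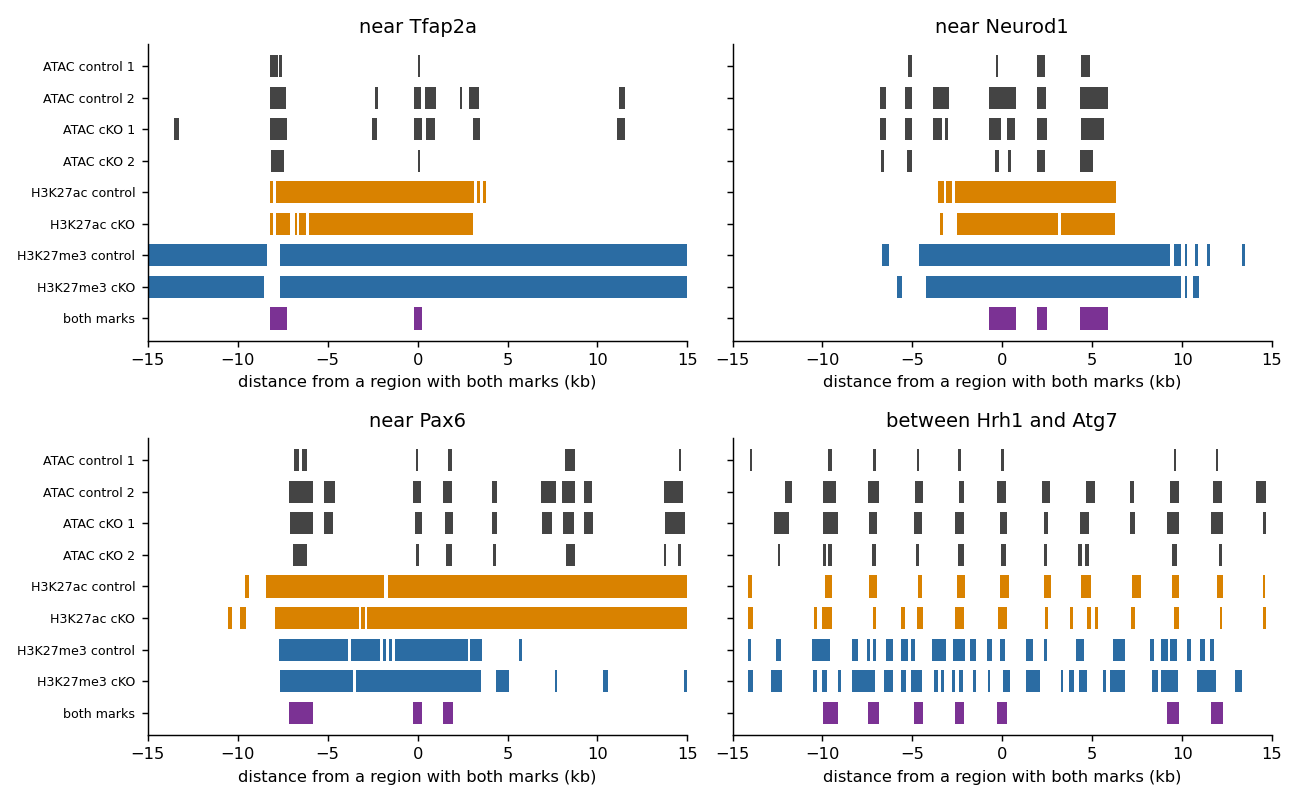
Peaks in each list (rows) around a region with both marks near Tfap2a, Neurod1 and Pax6 and between Hrh1 and Atg7, by distance from the region centre (kb, horizontal axis), with the bottom row showing the regions with both marks. Near Neurod1 an H3K27ac block lies inside a longer H3K27me3 block in both genotypes.

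Of 1136 microRNA genes on these chromosomes, 91 (8.01%) lay within 10 kb of a region with both marks, beside 35.4% for H3K27ac-only regions and 4.40% for H3K27me3-only regions, which are more and fewer in number. The mature sequences of the cluster of miR-183, miR-96 and miR-182, which is expressed in photoreceptors and other sensory cells, are shown with that of miR-9, a microRNA of neural progenitors. The seed, bases 2 to 8, is in capitals.
miR-183-5p: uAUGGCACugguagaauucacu
miR-96-5p: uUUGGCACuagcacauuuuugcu
miR-182-5p: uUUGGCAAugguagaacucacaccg
miR-9-5p: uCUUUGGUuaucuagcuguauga
The seeds of the 3 clustered microRNAs differ from one another, and that of miR-9 differs from all of them. Mir183 lay 4.314 kb, Mir96 4.5 kb and Mir182 8.059 kb from the region described above. Mir9-3 (chromosome 7, 79505264 to 79505353) lay inside its own region with both marks. The sequences are from RefSeq on GRCm38.p6.

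Several genes had a series of such regions. Most genes with any had 1 (2102 of 2326), 188 had 2 and 36 had 3 or more. The largest numbers were 9 at Hrh1, 8 at Gm40363, 6 at Epha8 and 5 each at Atg7, Barhl2 and Nr2e1, and Ccnd1, Lmo1, Prdm8 and Sox2 were among those with 4. The 4 Ccnd1 regions (chromosome 7, 144937399 to 144943726) spanned 6.328 kb. In the 5 regions of Barhl2 (chromosome 5, 106451837 to 106472662), H3K27me3 covered all 5000 bp of the window in both genotypes in 4, and H3K27ac covered from 2416 to 4405 bp in control and from 1740 to 4010 bp in cKO.

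The regions of Atg7 and Gm40363 and all but 1 of those of Hrh1 lay in stretches of chromosome 6 with closely spaced regions. One stretch near the small RNA gene Rn4.5s held 19 regions with both marks in 124 kb, with a median distance of 4352 bp between their centres. They lay as a group of 9 in 31.6 kb and a group of 10 in 39.2 kb, with 54516 bp between the facing centres. The other stretch, between Hrh1 and Atg7, held 19 in 139.9 kb. There, 59 ATAC peaks of control replicate 2 followed one another at a median spacing of 2459 bp, 55 of cKO replicate 1 at 2463 bp and 44 of cKO replicate 2 at 2447 bp, while the 28 of control replicate 1 lay 4893 bp apart. The 62 H3K27ac peaks of the control had a spacing of 2403 bp and the 73 of the cKO one of 2274 bp, and the 125 and 130 H3K27me3 peaks spacings of 989 and 972 bp. Whether repeated sequence bears on this spacing was not tested. Without both stretches 2801 regions remained, and Epha8, Barhl2 and Nr2e1 had the most.

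The first comparison asked how widely these regions were open beside regions with 1 mark. The measure was the number of bases of the region under an ATAC peak, since the lists hold no read counts and depth is unknown. The median in regions with both marks was 343 bp in control replicate 1, 1093 bp in control replicate 2, 1041 bp in cKO replicate 1 and 536 bp in cKO replicate 2. In H3K27me3-only regions it was 169, 650, 608 and 266 bp in the same order, and in H3K27ac-only regions 383, 911, 873 and 544 bp. Wide regions meet 4 histone lists more readily, so the rule bears on this measure: the median width was 1135 bp with both marks, 946 bp with H3K27ac only and 688 bp with H3K27me3 only. The values are therefore a description, with no test. Regions with both marks were higher than H3K27me3-only regions in 4 of 4 libraries, by 0.89 ± 0.15 on the log2 scale (SD, n = 4). Against H3K27ac-only regions the difference was 0.08 ± 0.21 (SD, n = 4), with 2 libraries higher and 2 lower. The libraries with the long peak lists, control replicate 2 (108569 peaks) and cKO replicate 1 (91931), had the higher value. Those with the short lists (39636 and 59574) had the lower, so at all distances together this difference went with the length of the list. Within 1 kb of a gene end it was -0.13, with 2 libraries higher. Over 1 kb from a gene end it was 0.19, with all 4 libraries higher. At all distances together, the log2 difference to H3K27ac-only regions averaged 0.05 in control and 0.12 in cKO.

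**Figure D4:**
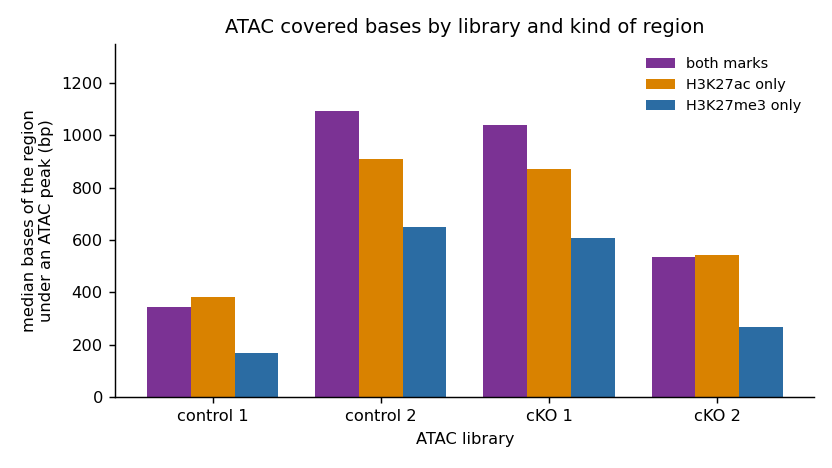
Median number of bases of a region under an ATAC peak (bp, vertical axis) in each of the 4 libraries, for regions with both marks, H3K27ac only and H3K27me3 only. The bar for both marks is above that for H3K27me3 only in all 4 libraries, and above that for H3K27ac only in control replicate 2 (1093 against 911 bp) and cKO replicate 1 (1041 against 873 bp).

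The second comparison asked whether these regions were opened or closed in Casz1 cKO cells. No region with both marks passed the threshold: limma's moderated test over all 32852 regions called 0 of 2839 at an adjusted p below 0.05, and 0 of all regions (0%). At an unadjusted p below 0.05 there were 8 of 2839 (0.282%), beside 0.323% of all regions. The lowest p belonged to a region outside Snrpn, 41.9 kb from an end of this imprinted gene (named after its value was seen). ATAC peaks there covered 142 bp in control replicate 1 and 508 bp in control replicate 2. They covered 258 bp in cKO replicate 1 and 110 bp in cKO replicate 2 (log2 difference -0.87, SE 0.32, limma adjusted p = 1). The short and long libraries are split across the genotypes, and these 4 values overlap between them. The median log2 difference, cKO minus control, was 0.02 over regions with both marks and -0.02 over all regions, with 1495 regions above 0 and 1344 below. The split depends on the scaling, with 1095 above and 1744 below after median centring, where all regions had a median of -0.13, and 2343 and 496 without normalization, where that median was 0.17. Leaving out control replicate 2, the longest list, gave 35 calls, all higher in cKO (0.295% of all regions were called), and 19 with median centring (0.170% of all). Leaving out control replicate 1 gave 2 calls, all lower (0.00913% of all), and leaving out cKO replicate 2 gave 1 (0.00304% of all), while median centring gave 0 in both cases. In these fits 1 library stands alone and is assumed to vary like the other genotype. Experiments were done on different days, per the labels, but which libraries shared a day was not stated, so p-values measure the spread between these libraries. The main fit held no term for list length and did not separate it from the spread within a genotype.

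The third comparison asked how the marks at these regions differed in cKO retina. With 1 library per mark and genotype there is no replicate check and no test, and a region is counted where covered bases in its 5 kb window differ by at least 1.5-fold. H3K27ac was past that in 340 regions of 2839, where 9.60% of all 22001 open regions with H3K27ac in both lists were past it: 247 had fewer bases in cKO (8.70%, beside 7.04%) and 93 had more (3.28%, beside 2.56%). Of the 2839 regions, 1824 (64.2%) had fewer bases by any amount, beside 64.0% of those 22001, and the whole cKO list covered 50.7 Mb against 54.4 Mb in control. The cKO H3K27ac list held more and shorter peaks (76177, median 322 bp) than the control list (70458, median 397 bp). Whether this way of calling peaks bears on the covered bases was not tested. H3K27me3 was past 1.5-fold in 7.29% of regions, beside 6.24% of 4518 open regions with H3K27me3 in both lists. Of the 2839 regions, 109 had more (3.84%, beside 3.01%) and 98 had fewer (3.45%, beside 3.23%). The 4518 regions include the 2839. In the 1427 H3K27me3-only regions, 4.41% were past 1.5-fold, with more bases in 1.75% and fewer in 2.66%. The median change of H3K27me3 at regions with both marks was 0 bp. All these shares lay a few percentage points or less above their backgrounds, and both backgrounds include the 2839 regions. For H3K27ac, 9.25% of the H3K27ac-only regions were past 1.5-fold, with more bases in 2.47% and fewer in 6.78%. Regions with both marks had fewer bases of each mark by the medians given above. Whether this bears on the shares past 1.5-fold was not tested.

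The 5 largest H3K27ac differences in bases in each direction are given here, chosen by the number of bases and not by the ratio. Fewer bases in cKO were listed at Fezf2 (4822 bp in control, 3424 bp in cKO), a zinc finger factor gene, at the bHLH gene Bhlhe22 (4696 and 3384 bp), at Rasd1 (2391 and 1115 bp), at the inhibitor of bHLH factors Id2 (1870 and 608 bp) and at Prdm8 (3248 and 2062 bp). More were listed at the netrin receptor gene Unc5c (1953 and 2910 bp), at Tchh (562 and 1483 bp), 73.1 kb from Otx2 (2486 and 3113 bp), 32.7 kb from the homeobox gene Gsx1 (135 and 749 bp) and at the imprinted deiodinase gene Dio3 (1546 and 2132 bp). The differences at Fezf2, Bhlhe22, Unc5c, Otx2 and Dio3 were under 1.5-fold. H3K27me3 at the Bhlhe22 region was 2381 bp in control and 2863 bp in cKO, and at the Fezf2 region 3509 and 3661 bp.

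The largest H3K27me3 differences were chosen in the same way. More bases in cKO were listed at the glial potassium channel gene Kcnj10 (1118 and 2764 bp), at the cadherin gene Cdh22 (665 and 2180 bp), at the ephrin receptor gene Epha4 (2972 and 4436 bp), over 215 kb from Tle3 (854 and 2425 bp), and inside Akap6 but over 215 kb from either of its ends (970 and 2823 bp). Fewer were listed near Clmp (4360 and 2965 bp), at Abca1 (2341 and 968 bp), at Rab6b (3201 and 1691 bp), at Vsig8 (4037 and 2628 bp) and at Rimkla (4263 and 2910 bp). Those at Epha4, Clmp and Rimkla were under 1.5-fold. Both marks passed 1.5-fold together in 26 regions, 9 of them with H3K27ac lower and H3K27me3 higher, 8 with both lower, 5 with H3K27ac higher and H3K27me3 lower and 4 with both higher.

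**Figure D5:**
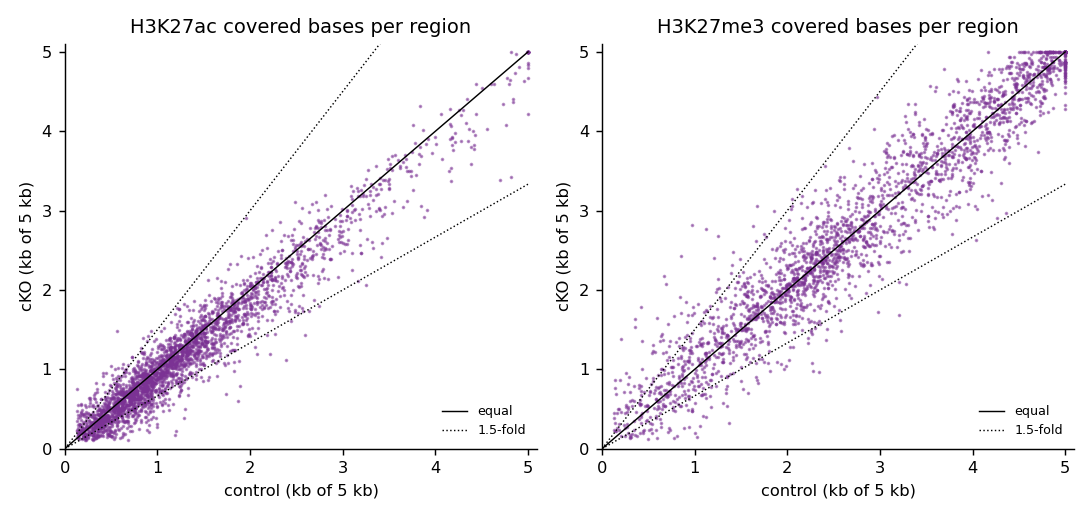
Bases covered by H3K27ac (left) and H3K27me3 (right) in the 5 kb window of each of the 2839 regions, control (horizontal axis, kb) against cKO (vertical axis, kb), 1 library each, with lines for equal values and 1.5-fold. For H3K27ac 247 points lie at or below the lower dotted line and 93 at or above the upper one.

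Casz1 itself had 2 such regions. One lay 33.3 kb from an end of the gene (chr4:148770518-148771081), with 1598 and 1327 bp of H3K27ac and 1817 and 2284 bp of H3K27me3 in control and cKO. The other lay 2.515 kb from an end (chr4:148806881-148807282), with 4160 and 4277 bp of H3K27ac and 1621 and 1887 bp of H3K27me3. They say nothing about the genotype labels, since the extent of the deletion was not stated.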

How the data were processed

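Groups and replicate numbers came from the sample titles. The deposited files list peaks as positions; their score column, per the file contents the authors deposited, is 0 throughout, so they hold no height, p-value or read count, and depth is unknown. Per the submitters' processing notes, Bowtie2, deepTools and MACS2 were used with mm10; thresholds, duplicate handling and the role of input: not given in the sources used here. Input chromatin samples were not analysed here. Members and gene lists were chosen with earlier results of these data known.

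Regions were merged, classed and assigned to genes (nearest end of a RefSeq GRCm38.p6 protein-coding gene, within 50 kb) in Python 3.11.15 with pandas 2.3.3. Covered bases of each region, as log2, were quantile normalized and fitted with limma 3.58.1 (R 4.3.3, eBayes with trend), with Benjamini-Hochberg adjustment over all 32852 regions. The fit was tested on simulated data. In those data, at the spread of the real libraries, it recovered large changes and few of the small ones. The real control lists held 39636 and 108569 peaks, and limma gave an unadjusted p below 0.05 at 0.323% of all regions. Whether the fit would recover large changes between these real lists was not tested. In the simulated data at a much lower spread, quantile normalization made many false calls, mostly at regions of extreme width. Median centring made few there. Median centring was therefore also run with each library left out, an alternative added after the data were seen.

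Same-numbered libraries had deviations from their group means that correlated at -0.643, so the numbers were not taken to pair libraries. Of the gene list entries, 828 of 829 matched by symbol; a list of imprinted genes (8 of 30 with a region) was added after values were seen. Named are the genes with the most regions, the 10 regions, at most 1 per gene, with the most bases under both marks, the 5 largest changes per mark and direction, up to 3 genes per list, and Casz1; some genes that this rule takes are not reported here.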

Additional observations from a re-analysis of the deposited data

How the results depend on the processing

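The number of regions with both marks was 1062 when each histone list had to cover at least 50% of the region, and from 2749 to 3633 when an ATAC library was left out. Regions called by limma numbered from 0 to 35 when a library was left out (35 of 97 over all regions without control replicate 2, and 19 of 56 there with median centring), and 0 under median centring, without normalization, and with a minimum mean of 300 bp. With the replicate block the count was 0, and with the crossed pairing, chosen after seeing the data, it was also 0 (296 at an unadjusted p below 0.05, 10.4%, beside 5.71% of all regions). The crossed pairing puts the long lists in one block and the short lists in the other, and so fits list length beside genotype. Within each block the lists still differ in length. Against H3K27ac-only regions the log2 difference in ATAC bases was -0.13 within 1 kb of a gene end and 0.19 over 1 kb away. With a library left out it was from 0.02 to 0.17 at all distances together. Against H3K27me3-only regions it was from 0.85 to 0.94 with a library left out. The direction against H3K27ac-only regions turned with distance to genes; the cause was not tested. The share of regions past the threshold at 2-fold was 4.54% for H3K27ac (background 3.44%) and 2.99% for H3K27me3 (background 2.46%); for H3K27me3 it was 11.8% in 2 kb windows (background 9.73%) and 20.4% in the region itself, where the background was 20.2%. These backgrounds include the regions with both marks. Within 2 kb of a gene end lay 68.5%, within 5 kb 75.3%, and within 1 kb of a transcription start 58.4%. Both marks shared at least 50% of the region in 33.7%. Unknown depth limits all of these values.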

Other observations

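Imprinted genes, a list added after values were seen, had a region with both marks at 8 of 30, with 2 each at Gnas and Grb10. The Grb10 region 0.074 kb from a gene end (chr11:12036690-12037354) had 4273 bp under both marks in the genotype with fewer, and ATAC peaks covered 177 bp in control replicate 1, 657 bp in control replicate 2, 632 bp in cKO replicate 1 and 273 bp in cKO replicate 2. At imprinted genes the parental copies are known to differ in their chromatin, and peak lists do not separate the copies.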
